A study of Mus musculus with 9 samples.

Results

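The guanylate-binding proteins (GBPs) examined here are the 10 mouse genes Gbp2, Gbp3, Gbp4, Gbp5, Gbp6, Gbp7, Gbp8, Gbp9, Gbp10 and Gbp11, chosen by name from the 54532 genes in the count files and followed through 3 groups of kidneys. The wild-type group held kidneys of C57BL/6J mice, which the study's methods describe as purchased at 4 to 8 weeks of age. The other groups were Trex1-/- mice on the same background, bred from heterozygous parents, lacking an exonuclease that degrades cytosolic DNA, and injected daily from 1 month of age for 2 weeks with either vehicle, labelled PBS (PBS with 1% Tween 80 in the methods), or SN-011, an antagonist of the DNA-sensing adaptor STING. No injection and no age at sampling were described for the wild-type mice. Genotype, source, age and injection therefore cannot be told apart between them and the Trex1-/- mice. Each group had 3 libraries, and the labels did not say that the 3 came from separate animals, so that p-values measure the spread between these libraries, which may in part be technical. The comparisons asked how the kidney transcriptome changes when TREX1 is missing and what 2 weeks of STING antagonist do to that change.

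GBPs are large GTPases of the dynamin superfamily whose genes are switched on by interferons, type II interferon above all, through interferon regulatory factors and other factors that interferon receptors activate. They assemble on the membranes of intracellular bacteria and on the vacuoles of parasites such as Toxoplasma gondii, break these membranes open and help inflammasomes to sense what is released. Nearly every nucleated cell can make them after interferon, the epithelia and endothelia of the kidney included, and they are among the genes that rise in interferon-driven autoimmune disease. TREX1 loss is a known trigger of such disease because undigested DNA activates cGAS and STING.

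The 10 genes lie in 2 clusters of GRCm38, the build (mm10) the study aligned to. On chromosome 3, positions 142493978 to 142638008 (144.0 kb, plus strand), 4 members follow one another as Gbp5, Gbp7, Gbp3 and Gbp2. On chromosome 5, positions 105014150 to 105346472 (332.3 kb, minus strand), the other 6 follow as Gbp8, Gbp9, Gbp4, Gbp10, Gbp6 and Gbp11. Of these, 9 are annotated as protein coding and Gbp11 as a polymorphic pseudogene. Among the 6 genes on chromosome 5 the coding sequences were 90.0% to 98.4% identical by pair, against 67.0% to 79.6% among the 4 on chromosome 3 and 65.8% to 76.5% between the clusters.

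Promoter sequences were at hand for the 4 members on chromosome 3 and for Gbp2b, a neighbour that is not among the 10. They are shown because their starts carry the letters that interferon-activated factors are known to read, and because these genes are the ones whose counts are described below. The interferon-stimulated response element core, searched as GAAANNGAAA on both strands (TTTCNNTTTC as it reads on the other strand), occurred in 3.44% of the 32851 RefSeq promoter windows of GRCm38.p6, each 300 bases long and ending just after a start. It occurred at Gbp5, Gbp7, Gbp2 and the first of 2 starts of Gbp3, and also at Gbp2b. The stretches below, all on the plus strand, are chr3:142496729-142496818 for Gbp5, chr3:142530243-142530332 for Gbp7, chr3:142559959-142560043 for Gbp3, chr3:142594670-142594759 for Gbp2b and chr3:142620564-142620653 for Gbp2, with the matched letters in capitals (at Gbp3 a pair of overlapping matches).
Gbp5: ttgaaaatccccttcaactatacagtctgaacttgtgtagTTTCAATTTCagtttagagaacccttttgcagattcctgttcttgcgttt
Gbp7: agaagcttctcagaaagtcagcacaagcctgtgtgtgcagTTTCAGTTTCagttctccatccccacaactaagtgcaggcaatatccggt
Gbp3: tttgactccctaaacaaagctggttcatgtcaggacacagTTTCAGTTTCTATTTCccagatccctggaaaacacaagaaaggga
Gbp2b: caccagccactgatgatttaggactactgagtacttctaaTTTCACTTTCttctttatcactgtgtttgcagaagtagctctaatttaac
Gbp2: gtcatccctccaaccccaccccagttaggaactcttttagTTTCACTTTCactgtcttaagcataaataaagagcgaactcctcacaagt

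The match ended 155 bases before the annotated start at Gbp5, 43 bases before it at Gbp7, 49 bases at Gbp2 and 127 bases at Gbp2b. At Gbp3 the matches ended 35 and 29 bases before the start. The palindromic letters TTCNNNGAA, known as the gamma-activated sequence, occurred in 8.3% of all windows, with 2 matches at Gbp5, 2 at Gbp7 and none at Gbp2, Gbp3 or Gbp2b. A match describes the letters of the window and not a bound factor.

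On chromosome 5, Gbp6 and Gbp10 are near copies, which limits what their counts can say. Their coding sequences, 1833 bases each, differ at 30 positions and share a run of 421 identical bases. The 60 bases in which they differ most, coding bases 1567 to 1626, lie within 1 exon at chr5:105274211-105274270 for Gbp6 and chr5:105218411-105218470 for Gbp10 (GRCm38, minus strand), and the 9 differing bases are in capitals.
Gbp6: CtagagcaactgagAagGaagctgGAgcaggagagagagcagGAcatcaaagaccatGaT
Gbp10: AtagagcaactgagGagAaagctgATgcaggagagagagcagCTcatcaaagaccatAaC

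Of the 150-base windows along the representative transcripts, the read length of the study, 76.5% in Gbp6 and 63.2% in Gbp10 occurred letter for letter in a transcript of another gene, each other or the overlapping gene model Gm43302. Only uniquely mapped read pairs were counted, so pairs lying wholly in stretches shared by Gbp6 and Gbp10 may be missing from both. Single windows were compared here, and a pair with a mate in an unshared stretch may still be counted. How many pairs were lost cannot be told without the reads. Gm43302 itself held 0 to 2 counts per library. In the other 8 members at most 0.0786% of windows were shared. Gbp7 overlaps the gene model Gm43802 on the same strand by 637 exonic bases, and the effect on its count was not tested. Gbp4, Gbp8 and Gbp9 overlap on the same strand by about 120 exonic bases at their shared first exon. Whether the counting used strand was not given in the sources used here.

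The libraries held 16118813 to 21928965 counts, and 23180 to 24657 genes had reads. Trex1 was listed at 0 in all 9 libraries, wild type included, and its exons, 1147 bases in sum, lie wholly within exons of Atrip on the same strand, so that its count does not check the genotype, which rests on the labels (a count of 0 allows up to 0.135 to 0.186 CPM, the counts scaled to library size). None of the 8 markers of kidney tubules and podocytes was at 0 in any group. The Y-linked genes Uty, Eif2s3y, Kdm5d and Ddx3y summed to 153 to 188 CPM in all 3 PBS libraries, wild-type replicate 3 and SN-011 replicate 2, and to 0 to 0.377 CPM in the other 4. Xist was at 0.182 to 0.453 CPM in the former and 434 to 503 CPM in the latter. The wild-type and SN-011 groups each held libraries of both kinds, so neither group came from a single animal. The 5 libraries above 10 CPM are called Y-positive here and the other 4 Xist-positive, and each comparison was also fitted with this difference as a term, the Y-linked term. Within groups, SN-011 replicate 2 correlated least with the other 2 libraries of its group over all genes.

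All 10 GBPs had reads in every library and passed the filter on low counts. In wild-type kidneys their level per length, in CPM per kilobase of exon, ranged over more than 2 orders of magnitude. The length is that of all exons, and with only 23.5% of Gbp6 windows and 36.8% of Gbp10 windows not shared, the levels of these genes per length may be understated and their places in the order are uncertain. Gbp3 was highest at 11.1 ± 4.72 (SD, n = 3), followed by Gbp2 at 6.89 ± 0.713, and the libraries of these genes overlapped. Gbp7 stood at 3.49 ± 0.0244 and Gbp9 at 3.05 ± 0.251, with no overlap between neighbours. Below them came Gbp4 at 1.7 ± 0.104, Gbp5 at 1.05 ± 0.0453 and Gbp6 at 0.734 ± 0.265, of which only Gbp5 and Gbp6 overlapped. Gbp8 at 0.352 ± 0.142 and Gbp10 at 0.21 ± 0.0356 overlapped with each other, and Gbp11 was lowest at 0.0744 ± 0.0101, from 4 reads in each wild-type library.

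**Figure D1:**
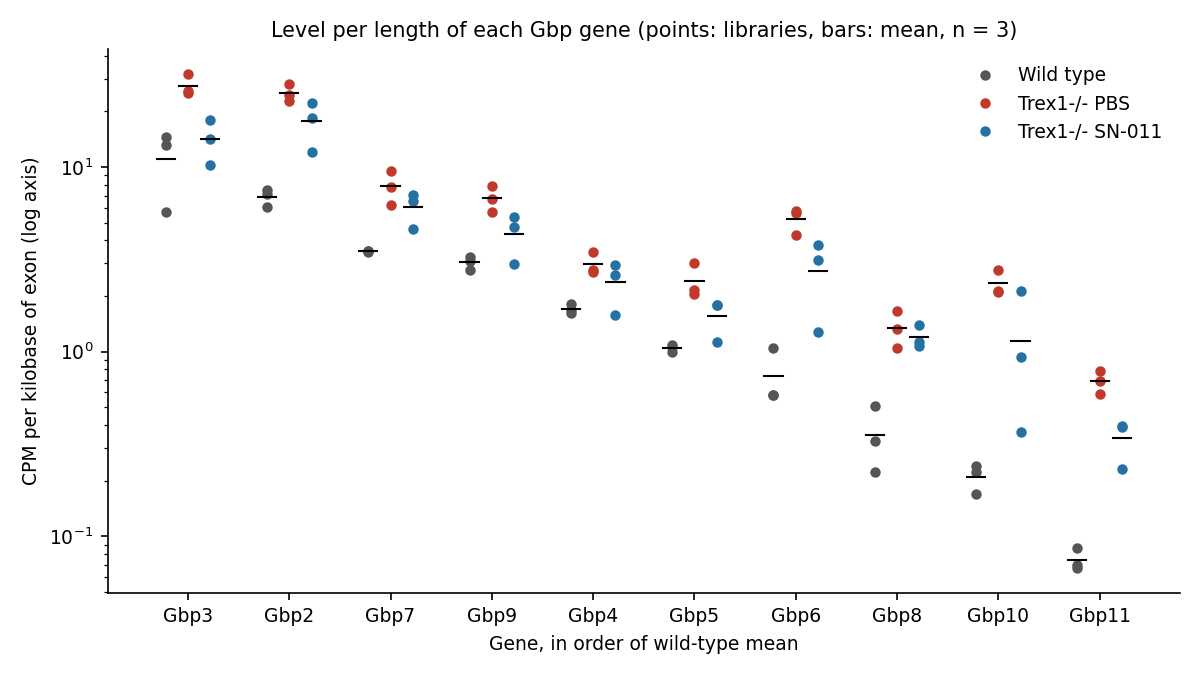
CPM per kilobase of exon (log axis) of each GBP gene in each of the 9 libraries, with genes in order of the wild-type mean, points for libraries and bars for group means of 3. Gbp3 and Gbp2 are highest and Gbp11 lowest in wild type, and the places of Gbp6 and Gbp10 are uncertain because most of their windows are shared.

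In Trex1-/- kidneys with PBS the order was close to that of wild type at the top, with Gbp3 at 27.5 ± 3.78 and Gbp2 at 25.2 ± 2.7 CPM per kilobase, which overlapped. Gbp6 reached 5.21 ± 0.819 and Gbp10 2.34 ± 0.377, within the same limit, beside 2.98 ± 0.436 for Gbp4 and 2.41 ± 0.524 for Gbp5. Gbp11 remained lowest at 0.689 ± 0.0985. With SN-011, Gbp2 at 17.6 ± 5.17 and Gbp3 at 14.1 ± 3.82 were again the highest, and of all neighbours in the order only Gbp3 and Gbp7 (6.09 ± 1.28) did not overlap.

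Trex1-/- kidneys with PBS held more GBP transcripts than wild-type kidneys. Of the 10 genes 8 rose, all but Gbp3 and Gbp4, at an adjusted p under 0.05 in edgeR's quasi-likelihood test over 16646 genes, where 1.44% of all genes were called higher. The members that rose ranged from 2.22-fold for Gbp9 to 11.1-fold for Gbp10 (with the Y-linked term, the log2 fold change of Gbp10 was 2.65 in place of 3.47). The median log2 fold change of the 10 was 1.59, against 0.00 over all tested genes. Every PBS library lay above every wild-type library for 10 of 10 genes, a pattern that 13.1% of all tested genes showed. The summed level of the 10 was 123, 120 and 102 CPM in the wild-type libraries and 290, 363 and 298 CPM in the PBS libraries. In bulk tissue, a change in the number of cells that express a gene cannot be told apart from a change in its RNA per cell.

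**Figure D2:**
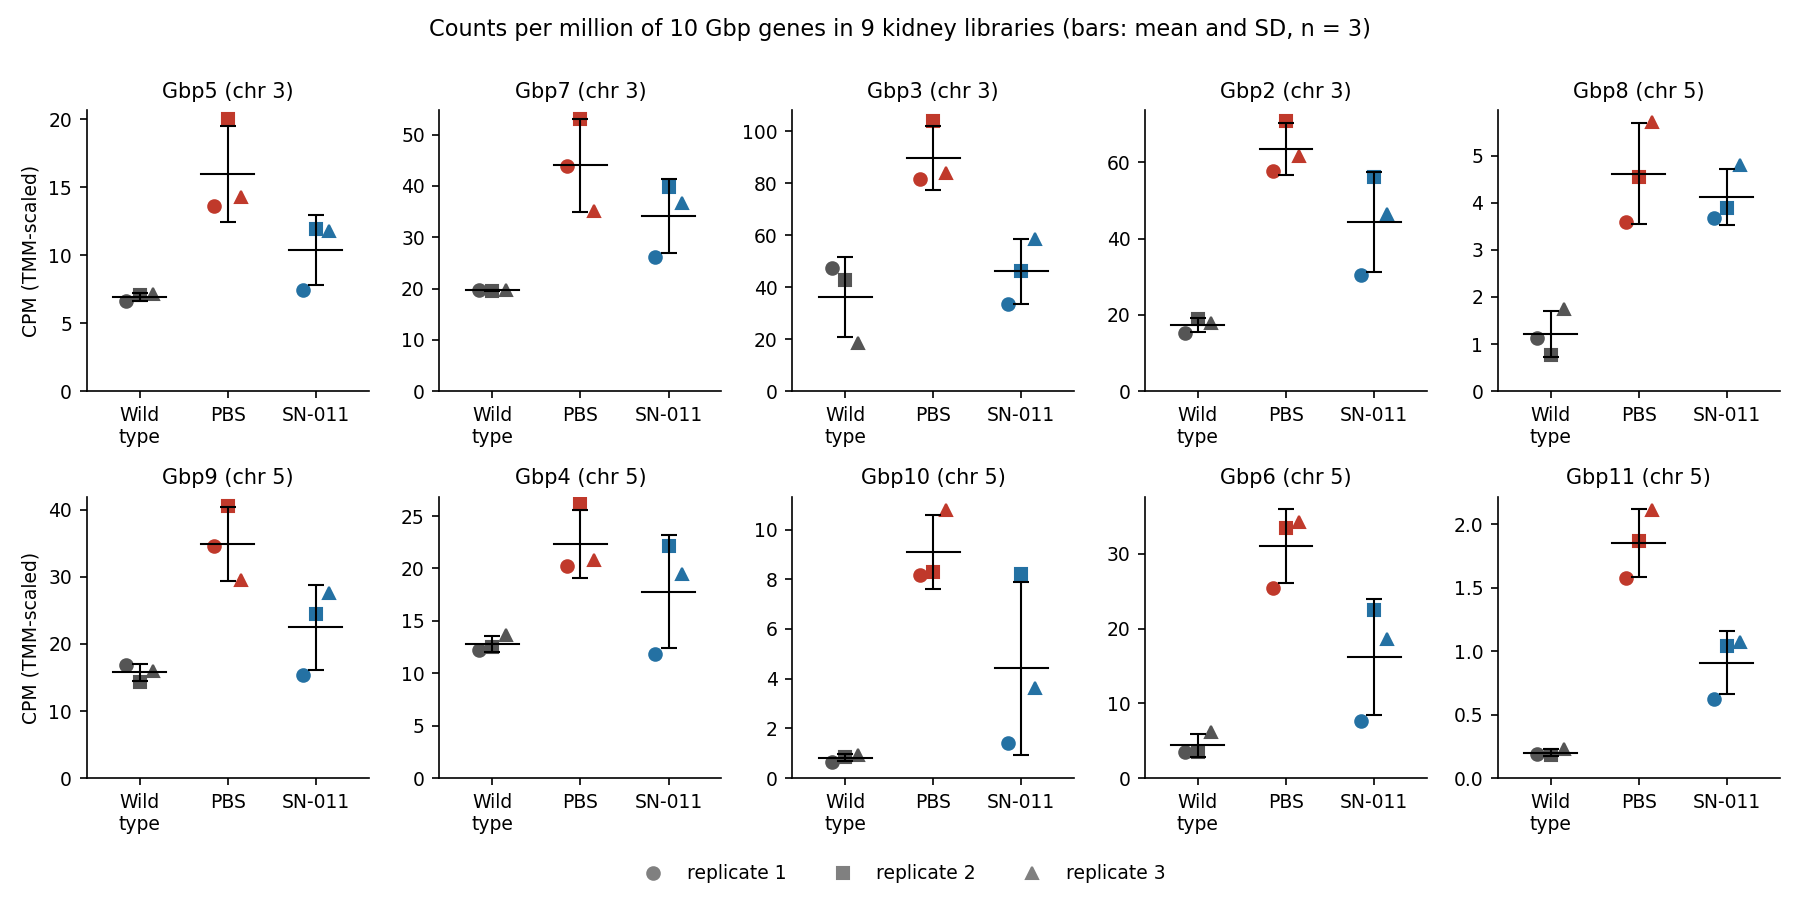
CPM (TMM-scaled) of each GBP gene in each library, with marker shapes for replicates, horizontal bars for group means and error bars for the SD (n = 3). PBS libraries lie above wild-type libraries in all 10 panels, and replicate 1 is the lowest SN-011 library in all 10.

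The members with the largest fold changes were Gbp10, Gbp11 and Gbp6, neighbours at one end of the chromosome 5 cluster. Gbp6 and Gbp10 have been linked to the defence of macrophages against Listeria and mycobacteria. Gbp10 had 0.66, 0.858 and 0.926 CPM in wild-type replicates 1 to 3 and 8.16, 8.29 and 10.8 CPM with PBS. Its log2 fold change was 3.47 (adjusted p = 0.00752, SE 0.53). The groups were thus far apart, with 14 to 19 reads per library against 134 to 173. Reads in stretches shared with Gbp6 may be missing from these counts. Gbp6 stood at 3.44, 3.48 and 6.19 CPM in wild type and at 25.4, 33.5 and 34.2 CPM with PBS, a log2 fold change of 2.84 (adjusted p = 0.0028, SE 0.37). Wild-type replicate 3 was the highest of its group, and still well under all PBS libraries. Gbp11 went from 0.189, 0.181 and 0.231 CPM to 1.58, 1.87 and 2.11 CPM, which gave a log2 fold change of 3.18 (adjusted p = 0.00108, SE 0.36). It remained the scarcest member, at 26 to 34 reads per PBS library.

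The remaining members of chromosome 5 changed less. Gbp8 had 1.13, 0.768 and 1.74 CPM in wild type and 3.59, 4.55 and 5.72 CPM with PBS, with a log2 fold change of 1.95 (adjusted p = 0.00875, SE 0.31). Gbp9, which has been seen to gather at vacuoles of Toxoplasma, had 16.9, 14.4 and 16 CPM against 34.6, 40.6 and 29.6 CPM, a log2 fold change of 1.15 (adjusted p = 0.0146, SE 0.20). Both genes were separated by group, and PBS replicate 3 was the highest PBS library for Gbp8 and the lowest for Gbp9. Gbp4, a reported inhibitor of the interferon regulatory factor IRF7, had 12.2, 12.5 and 13.7 CPM against 20.2, 26.1 and 20.8 CPM. Its log2 fold change of 0.81 (SE 0.20) did not pass the test (adjusted p = 0.0834), although the libraries did not overlap.

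On chromosome 3, Gbp2 had the smallest p of the family. Gbp2 carries a lipid anchor and is among the GBPs that coat parasite vacuoles and bacteria. Its level was 15.3, 18.8 and 17.9 CPM in wild type and 57.7, 70.9 and 61.6 CPM with PBS, with a log2 fold change of 1.87 (adjusted p = 0.000735, SE 0.20). Both groups were narrow, with a coefficient of variation of 10.4% in wild type and 10.7% with PBS. Gbp5, which promotes assembly of the NLRP3 inflammasome, went from 6.6, 7.05 and 7.17 CPM to 13.6, 20 and 14.3 CPM, a log2 fold change of 1.20 (adjusted p = 0.0143, SE 0.21). Gbp7, which helps to assemble the phagocyte oxidase on vacuoles, went from 19.7, 19.5 and 19.7 CPM to 43.8, 53.1 and 35.1 CPM, a log2 fold change of 1.17 (adjusted p = 0.00681, SE 0.18). For both genes the spread lay in the PBS group, where replicate 2 was highest.

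Gbp3 was the most variable member in wild type. It had 47.3 and 42.8 CPM in replicates 1 and 2 and 18.7 CPM in replicate 3, the only Y-positive wild-type library. With PBS it had 81.7, 104 and 83.9 CPM. The log2 fold change of 1.31 (SE 0.30) did not pass the test (adjusted p = 0.064), while with the Y-linked term it was 1.75 and did (adjusted p = 0.0342). Among SN-011 libraries, the Y-positive one had 46.4 CPM and lay between the other 2.

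**Figure D3:**
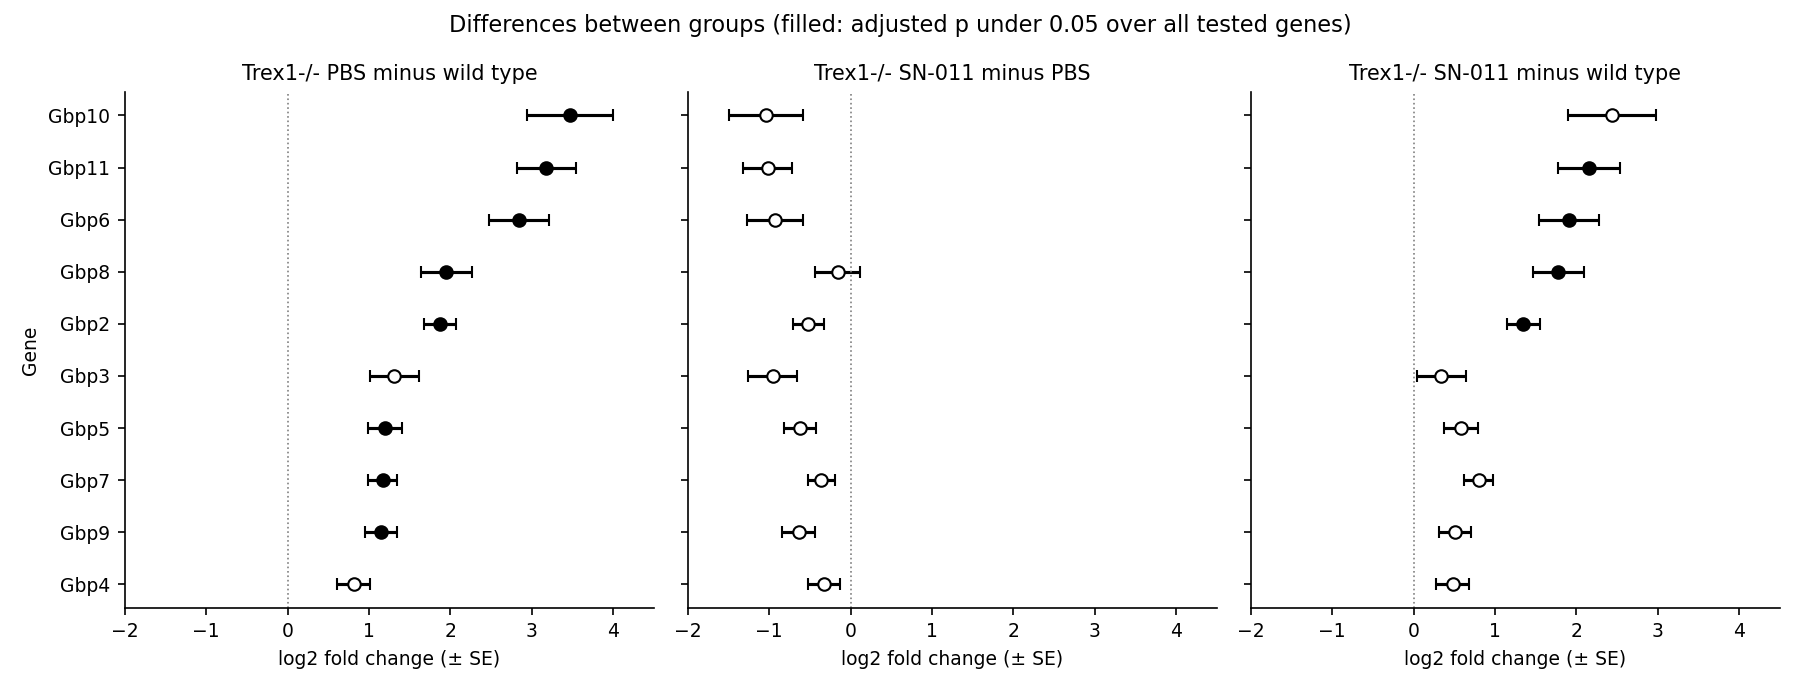
Log2 fold change of each GBP gene (points, with SE as bars) in the 3 comparisons, with filled points at an adjusted p under 0.05. Filled points are 8, 0 and 4 of 10, and all 10 points lie below 0 for SN-011 minus PBS.

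With the Y-linked term, 7 members were called higher in Trex1-/- with PBS, where 1.19% of all genes were called in either direction. Gbp5 (adjusted p = 0.0848) and Gbp9 (adjusted p = 0.0757) were no longer called and Gbp3 was. Gbp11 then had the largest fold change (2.97 on the log2 scale), above Gbp10. Set against wild-type replicate 3 alone, the Y-positive wild-type library, all 3 PBS libraries were higher for 10 of 10 members and for 29.8% of all tested genes. For the members this follows from the separation of the whole groups and is no further check. Leaving out wild-type replicate 1 left 4 members called (Gbp2, Gbp6, Gbp7 and Gbp11), where 0.824% of all genes were called higher.

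Some markers of immune cells were also called higher with PBS. Leukocyte markers (Ptprc, Coro1a and Laptm5) summed to 42.4 to 55.1 CPM in wild type and 79.4 to 91.6 CPM with PBS, and 1 of the 3, Coro1a, was called (log2 fold change 0.94, adjusted p = 0.0457). The 8 macrophage and monocyte markers summed to 182 to 214 CPM and 289 to 324 CPM, and 3 of them, the complement genes C1qa, C1qb and C1qc, were called at log2 fold changes of 0.79 to 0.96. The 9 markers of T and NK cells summed to 6.18 to 9.55 CPM and 18.6 to 31 CPM, with Cd3g and Cd4 called among the 8 tested. DESeq2 and edgeR's exact test each called 3 of 3, 5 of 8 and 5 of 8 in these lists. With the Y-linked term 0 of these 6 genes were called, at adjusted p-values of 0.0677 for C1qa to 0.182 for Coro1a. The genes called in these lists were singled out after their values were seen. No marker was at 0 throughout a group. The 3 B cell markers summed to 1.65 to 2.94 CPM in wild type and 1.17 to 1.86 CPM with PBS, and of the 2 tested Cd79a and Cd79b had log2 fold changes of 0.11 and -0.81. B cell, endothelial and fat markers had 0 called of 2, 6 and 3 tested, with 0, 2 and 0 at an unadjusted p under 0.05, and 2 endothelial markers were called by DESeq2. The 8 markers of kidney tubules and podocytes summed to 16950 to 17829 CPM with PBS against 18522 to 20506 CPM in wild type and 17719 to 18101 CPM with SN-011, with no overlap between PBS and wild type. Of the 8, edgeR and DESeq2 called 0, and 2 had an unadjusted p under 0.05. The part of such cells in the levels of the GBPs was not tested.

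**Figure D4:**
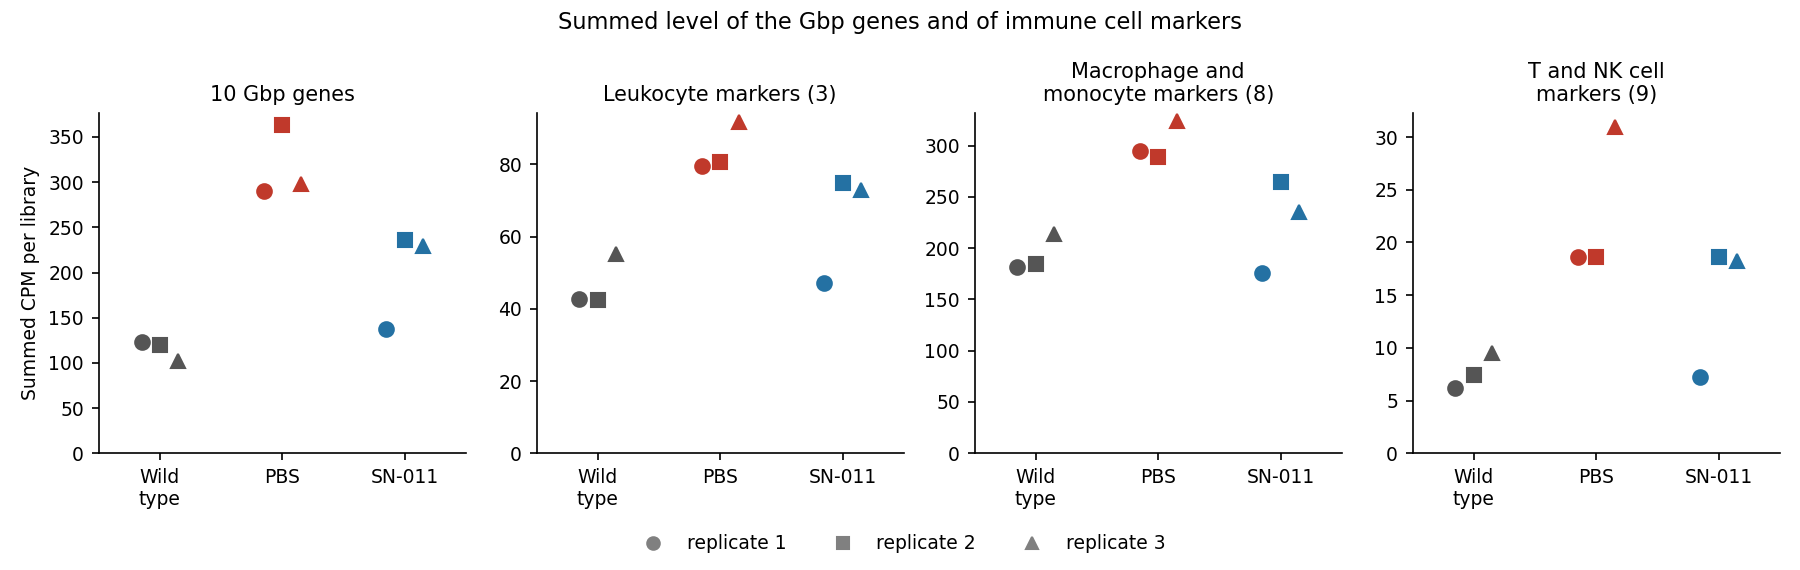
Summed CPM per library of the 10 GBP genes and of 3 marker lists, with marker shapes for replicates. The PBS libraries hold the highest sums of the GBP genes, and SN-011 replicate 1 is the lowest SN-011 library in all 4 panels.

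Given SN-011, Trex1-/- kidneys held lower mean levels of all 10 GBPs than with PBS, yet no member passed the test. The log2 fold changes ran from -1.04 for Gbp10 to -0.16 for Gbp8, with a median of -0.63 against -0.01 over all tested genes. In edgeR's quasi-likelihood test 0 of 10 members were called lower, and over all 16646 genes the share called lower was likewise 0%. At an unadjusted p under 0.05 there were 7 members, all lower, and 5.68% of all genes were lower at that p. DESeq2's Wald test, edgeR's exact test and limma-voom called 0 members as well, with DESeq2 giving no adjusted p for Gbp11. DESeq2 called 183 genes and the exact test 127 over the whole table. Same-numbered PBS and SN-011 libraries deviated weakly together from their group means (r of 0.135 to 0.305), although no label states a pairing. The 6 libraries were therefore also fitted with the replicate number as a block, a fit added after the data were seen. It called 0 of 10 members (adjusted p-values of 0.146 for Gbp3 to 0.796 for Gbp8) and 5 genes of the whole table. Within the 3 same-numbered pairs SN-011 was lower each time for 8 of 10 members, all but Gbp7 and Gbp8, and for 17.7% of all tested genes. Without the block, the members' adjusted p-values ran from 0.278 for Gbp11 to 0.863 for Gbp8.

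SN-011 replicate 1 was the lowest of its group for 10 of 10 members. The summed level of the 10 genes was 138 CPM there, near the wild-type values, and 236 and 229 CPM in replicates 2 and 3. The same library had the lowest sums of its group for leukocyte (47.1 against 74.7 and 73 CPM), macrophage and monocyte (176 against 265 and 235 CPM) and T and NK cell markers (7.25 against 18.6 and 18.2 CPM). As groups, the SN-011 libraries had median log2 fold changes against PBS of -0.35 over the 3 leukocyte markers, -0.45 over the 8 macrophage and monocyte markers and -0.72 over the 8 T and NK cell markers tested, with every one below 0. The quasi-likelihood test called 0 of them, with 1, 4 and 2 at an unadjusted p under 0.05, and DESeq2 called 1 T and NK cell marker. Their part in the levels of the GBPs was not tested.

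Gbp10 showed the widest spread with SN-011. It had 1.42, 8.23 and 3.62 CPM in replicates 1 to 3, from 25, 142 and 61 reads. Replicate 2 lay within the range of the PBS libraries and replicate 1 near wild type, and the log2 fold change against PBS was -1.04 (adjusted p = 0.429, SE 0.46). Without replicate 2, also the library that stood apart over all genes and the only Y-positive SN-011 library, it was -1.85 and was called (adjusted p = 0.0243), the only member called in that fit, in which 2.29% of all genes were called lower.

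In 6 of 10 members all SN-011 libraries lay below all PBS libraries, as they did in 8.41% of all tested genes. These were Gbp2, Gbp3, Gbp5, Gbp6, Gbp9 and Gbp11. Gbp3 had 33.6, 46.4 and 58.5 CPM with SN-011, a log2 fold change of -0.96 (adjusted p = 0.289, SE 0.30). Gbp11 had 0.623, 1.04 and 1.07 CPM, a log2 fold change of -1.02 (adjusted p = 0.278, SE 0.30). Gbp6 had 7.59, 22.5 and 18.6 CPM, a log2 fold change of -0.93 (adjusted p = 0.344, SE 0.34). For Gbp11 and Gbp6 all 3 values also lay above the wild-type libraries, while those of Gbp3 overlapped them.

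The other 3 of these 6 had smaller log2 fold changes. Gbp2 had 30.4, 56.1 and 46.5 CPM (log2 fold change -0.52, SE 0.19), Gbp5 had 7.42, 11.9 and 11.8 CPM (-0.62, SE 0.20) and Gbp9 had 15.4, 24.5 and 27.6 CPM (-0.64, SE 0.20). The highest SN-011 library lay close under the lowest PBS library for Gbp2 (56.1 and 57.7 CPM), Gbp9 (27.6 and 29.6 CPM), Gbp5 (11.9 and 13.6 CPM) and, of those above, Gbp6 (22.5 and 25.4 CPM). Gbp4, Gbp7 and Gbp8 overlapped with PBS. Gbp8 in particular had 3.68, 3.88 and 4.81 CPM with SN-011 and a log2 fold change of -0.16 (SE 0.28), a value that was 0.04 with the Y-linked term.

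Because all PBS libraries were Y-positive and only 1 SN-011 library was, SN-011 replicate 2 is the only one that can be set beside PBS within such libraries. It lay below the PBS mean for 10 of 10 members, as in 53.3% of all tested genes, and below every PBS library for 6 of 10, as in 33.3%. These 6 are the members whose groups did not overlap, so that count follows from the separation given above. The differences of replicate 2 from the PBS mean were -0.96 on the log2 scale for Gbp3 and -0.83 for Gbp11, and between -0.51 and -0.01 for the other 8. With the Y-linked term the median over the 10 was -0.43 and again 0 members were called.

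Kidneys of Trex1-/- mice with SN-011 still held more of some GBPs than wild-type kidneys. Gbp2, Gbp6, Gbp8 and Gbp11 were higher, which is 4 of 10 members, where 0.823% of all tested genes were called higher. Their log2 fold changes were 1.35 for Gbp2 (adjusted p = 0.0119, SE 0.20), 1.91 for Gbp6 (adjusted p = 0.0417, SE 0.37), 1.78 for Gbp8 (adjusted p = 0.0261, SE 0.31) and 2.16 for Gbp11 (adjusted p = 0.0268, SE 0.38). The median of the 10 was 1.08, against -0.00 over all tested genes. Since the comparisons share libraries, these values are not independent of those above.

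Among members that did not pass, the log2 fold change of Gbp10 was 2.44 (adjusted p = 0.0621, SE 0.54) and that of Gbp7 was 0.80 (adjusted p = 0.0608, SE 0.18), and in both the groups did not overlap. In all, SN-011 libraries lay above all wild-type libraries for 7 of 10 members, a pattern seen in 11.8% of tested genes. The other 3, Gbp3, Gbp4 and Gbp9, overlapped with wild type, with log2 fold changes of 0.34, 0.48 and 0.51. SN-011 replicate 1 had the lowest value in each of these, and for Gbp4 (11.8 CPM) it lay below all wild-type libraries.

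The number of calls in this comparison rested on single libraries. It was 0 without wild-type replicate 1 or wild-type replicate 2, where 0.171% and 0.177% of all genes were called higher. It was 2 without PBS replicate 1 (0.422% of all genes), 1 without PBS replicate 2 (0.469%) and 2 without SN-011 replicate 3 (1.06%). Without SN-011 replicate 1 it was 8 (0.939%), with Gbp4, Gbp7, Gbp9 and Gbp10 called as well. A fit of only the 6 libraries compared called 0 members, where 0.221% of all genes were called higher. With the Y-linked term 6 were called, Gbp7 (adjusted p = 0.0301) and Gbp10 (adjusted p = 0.0147) in addition, where 3.94% of all genes were called in either direction. Among Xist-positive libraries alone, both SN-011 libraries lay above both wild-type libraries for 7 of 10 members, as in 24.9% of all tested genes. These are the same 7 that did not overlap over all libraries, so this count adds no separate check.

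**Figure D5:**
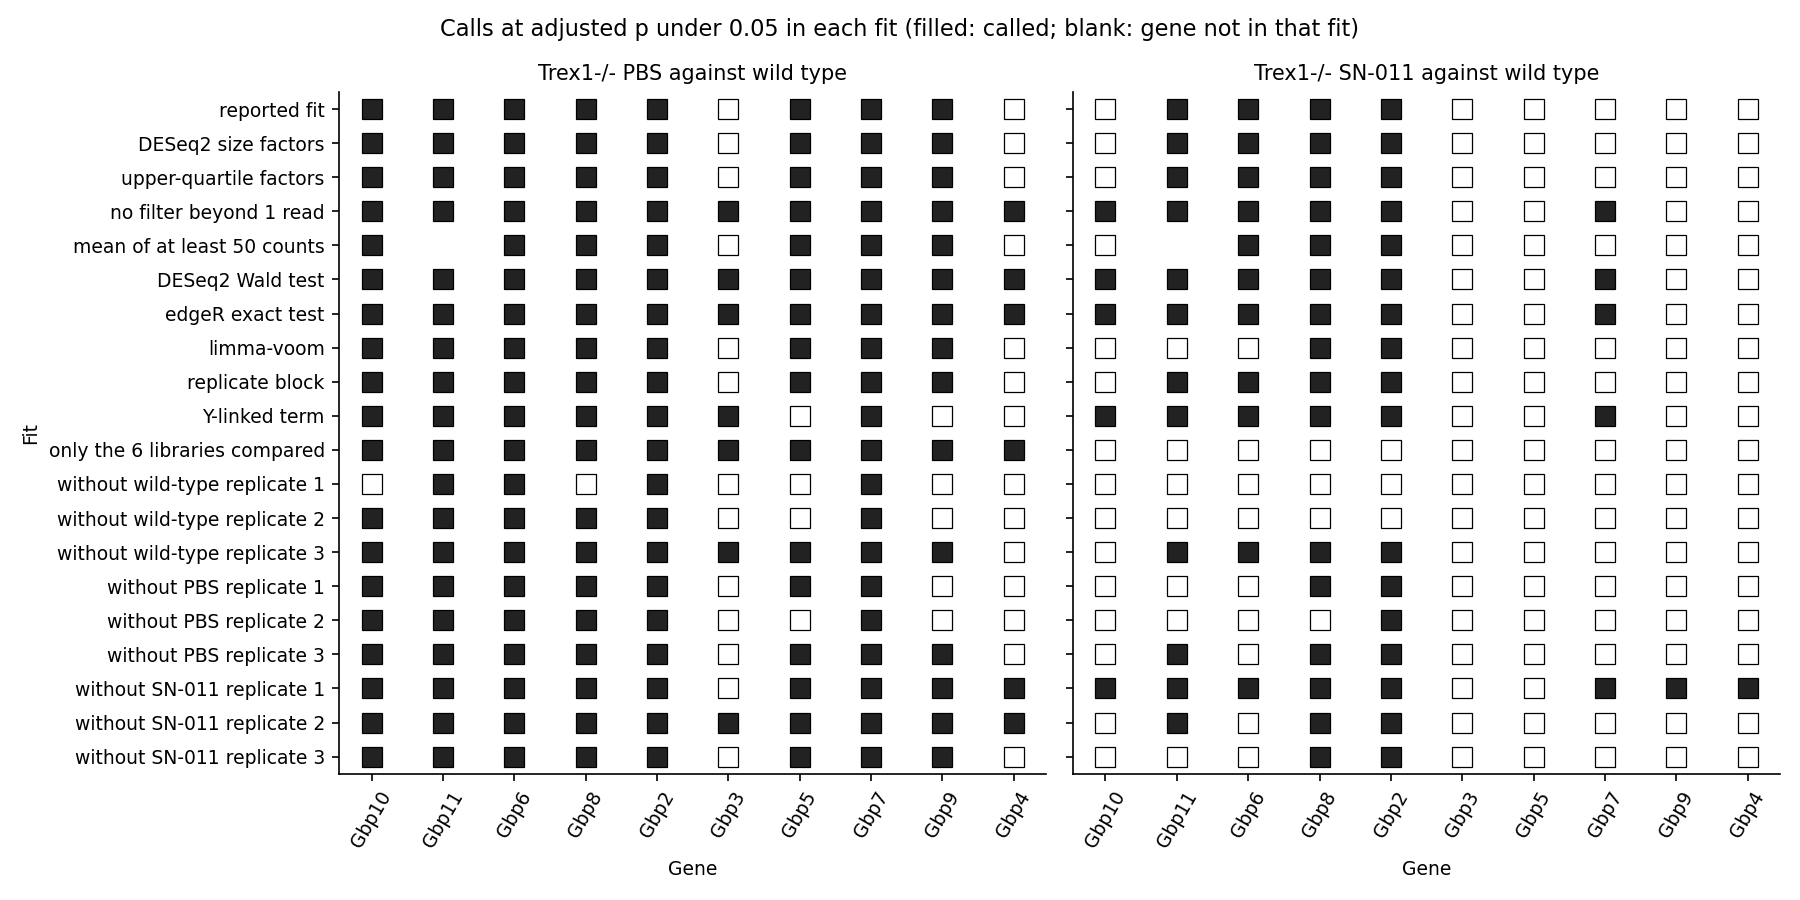
Calls of each GBP gene at an adjusted p under 0.05 in the reported fit and 19 alternatives, for PBS against wild type (left) and SN-011 against wild type (right), with filled squares for called, open squares for not called and blanks where a gene was not in the fit. Gbp2, Gbp6 and Gbp7 are filled in every fit on the left, and no gene is on the right.

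The 9 libraries ordered most members in a similar way. Pearson's r of log2 CPM over the 9 libraries ran from 0.517 for Gbp3 with Gbp8 to 0.981 for Gbp2 with Gbp11, with a median of 0.921 over 45 pairs, and these points share the libraries and the group differences already described. Of 14833 other tested genes with at least 1 CPM on average, those whose log2 CPM followed the mean standardised level of the 10 GBPs most closely were Ddx60 (r = 0.993), Gm12250 (r = 0.993), Slfn8 (r = 0.989), Ifi44 (r = 0.989) and Parp9 (r = 0.987). The group means of Ddx60 in wild type, PBS and SN-011 kidneys were 2.72, 16.3 and 8.29 CPM, and those of Ifi44 were 21.5, 68.7 and 40.9 CPM. Gm12250 belongs to the immunity-related GTPases described next.

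Genes listed here as upstream of the GBPs, mostly of interferon signalling, were examined as a list of 16, of which 14 were tested. Whether each of them acts on GBP genes was not tested. With PBS against wild type 4 rose and 10 did not pass, with a median log2 fold change of 0.18. Nlrc5, a transactivator of MHC class I genes, was at 37.6 CPM against 10.3 CPM (log2 fold change 1.87, adjusted p = 0.00133). Stat2, whose product type I interferon receptors activate, was at 79.5 CPM against 29.3 CPM (1.44, adjusted p = 0.000334). Irf1, which drives GBP genes after interferon, was at 36.4 CPM against 20 CPM (0.87, adjusted p = 0.00945), but was not called with the Y-linked term (adjusted p = 0.0501). The other gene that rose was Irf9 (0.86, adjusted p = 0.000784), the partner of STAT2, named here after its values were seen. Socs1, a feedback inhibitor of interferon signalling, was at 4.2 CPM against 1.71 CPM and did not pass (1.30, adjusted p = 0.0782). Irf2, which competes with Irf1 for the same elements, was at 29.7 CPM against 26.9 CPM (0.14, adjusted p = 0.662), and Ifnar2 and Jak2 had log2 fold changes of 0.03 and -0.05. The interferon genes themselves were near the floor, with 0 to 2 counts per library for Ifng and 0 in all 9 libraries for Ifnb1.

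Against PBS, edgeR's quasi-likelihood test called 0 of these 14 with SN-011, and edgeR's exact test and limma-voom likewise 0, while 4 had an unadjusted p under 0.05. Stat2 was called by DESeq2. Against wild type 3 of the 14 were called higher with SN-011. Stat2 had 50, 55.9 and 60.6 CPM with SN-011, above the 30.1, 27.5 and 30.3 CPM of wild type (log2 fold change 0.92, adjusted p = 0.011). Irf1 had 26.8, 27.7 and 33.8 CPM and did not pass (0.56, adjusted p = 0.0847), although its libraries lay above the 18.3, 17.5 and 24.2 CPM of wild type. With the Y-linked term it passed (adjusted p = 0.0406).

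The immunity-related GTPases, a second interferon-induced GTPase family that works with the GBPs on vacuoles, were examined as a list of 7 genes, not the whole family. All 7 were called higher with PBS than in wild type, at log2 fold changes of 1.66 to 2.39 and a median of 2.32. Gm12250 was at 11 CPM against 2.08 CPM (2.39, adjusted p = 0.000966), Irgm1 at 192 CPM against 54.7 CPM (1.81, adjusted p = 0.000218) and Irgm2 at 114 CPM against 36 CPM (1.66, adjusted p = 0.00353). Tgtp1 (2.37) and Tgtp2 (2.35) are near-identical copies whose reads the counting may have split. With SN-011, 0 of 7 were called against PBS (median -0.68) by edgeR's quasi-likelihood or exact test, DESeq2 or limma-voom, although all 7 had an unadjusted p under 0.05, and 6 of 7 were called higher than in wild type (median 1.64), Tgtp1 being the one that was not (adjusted p = 0.087), although adding the Y-linked term brought its adjusted p to 0.0141.

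Of 11 genes of inflammasomes and cell death, only some of which act downstream of the GBPs, 3 rose with PBS and 8 did not pass. The median log2 fold change was 0.56. Casp1, the protease of canonical inflammasomes, was at 4.32 CPM against 0.913 CPM (2.24, adjusted p = 0.00164). Casp4, which encodes the sensor of cytosolic lipopolysaccharide, was at 5.06 CPM against 1.48 CPM (1.77, adjusted p = 0.00244), and Naip5, a receptor of bacterial flagellin, at 3.58 CPM against 1.24 CPM (1.53, adjusted p = 0.0268), which was not called with the Y-linked term (adjusted p = 0.105). Its partner Nlrc4 and the membrane rupture protein Ninj1 had log2 fold changes of -0.02 and 0.00. With SN-011, Casp1 (1.44, adjusted p = 0.0381) and Casp4 (1.37, adjusted p = 0.0237) were still called higher than in wild type, and 0 of 11 were called against PBS by any of the 4 tests, with 2 at an unadjusted p under 0.05.

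The atlastins, GTPases of the endoplasmic reticulum and relatives of the GBPs in the same superfamily, had 0 of 3 called in every comparison by the quasi-likelihood test. At an unadjusted p under 0.05 there was 1 of 3 in either comparison with wild type and 0 of 3 against PBS, and DESeq2 called 1 of 3 with SN-011 against wild type. Atl1, Atl2 and Atl3 had log2 fold changes of -0.13, 0.28 and 0.04 with PBS against wild type, at adjusted p-values of 0.845, 0.102 and 0.859.

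The family is not complete in these 10. Gbp2b, which lies between Gbp3 and Gbp2 and carries the response element shown above, had 3 to 14 counts per library and was not tested. Its group means were 0.391 CPM (wild type), 0.548 CPM (PBS) and 0.367 CPM (SN-011). The pseudogene Gbp2-ps was at 0 counts in all 9 libraries.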

How the data were processed

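PolyA+ RNA of mouse kidney, 9 libraries with 3 per group, was sequenced as read pairs of 2 × 150 bases. The authors trimmed reads with Trimmomatic, aligned them with hisat2 to mm10 and counted uniquely mapped pairs per gene with featureCounts; per the labels and methods the deposited values are raw counts, and versions, annotation and strand setting are not given in the sources used here. Identifiers were matched to GENCODE vM21 (54495 of 54532). The members, gene lists and tests were chosen with earlier results of these data known.

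The analysis used edgeR 4.0.16 (R 4.3.3). The function filterByExpr selected genes (minimum count 10, minimum total 15), libraries were scaled by TMM, and all 9 fitted together with 1 mean per group, since the 3 groups then share one estimate of spread. Differences were tested by the quasi-likelihood F test, two-sided, with Benjamini-Hochberg adjustment over 16646 genes at 0.05. SEs derive from the F statistic. CPM are TMM-scaled, and log2 CPM for correlations used a prior count of 2. Libraries of 16118813 to 21928965 counts leave members with few reads, such as Gbp11, imprecise.

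Named were all 10 members, other Gbp genes by level, and, per list of related genes, the 3 largest and 2 smallest changes with PBS plus Irf1 and Irf2 (some items of the rule and lists are not reported here); the 5 genes most like the family were ranked by Pearson's r. Beside those the text spells out, the lists held Ifng, Ifnb1, Ifnar1, Ifnar2, Ifngr1, Ifngr2, Jak1, Jak2, Tyk2, Stat2, Irf1, Irf2, Irf8, Irf9, Socs1 and Nlrc5 (upstream genes); Irgm1, Irgm2, Igtp, Iigp1, Tgtp1, Tgtp2 and Gm12250 (immunity-related GTPases); Aim2, Casp1, Casp4, Gsdmd, Nlrp3, Pycard, Il1b, Il18, Ninj1, Naip5 and Nlrc4 (inflammasomes and cell death); Lrp2, Slc34a1, Umod, Slc12a1, Slc12a3, Aqp2, Nphs1 and Cdh16 (tubules and podocytes); Adgre1, Csf1r, Cd68, C1qa, C1qb, C1qc, Cd14 and Lyz2 (macrophages and monocytes); Cd3e, Cd3d, Cd3g, Cd4, Cd8a, Cd8b1, Nkg7, Ncr1 and Gzmb (T and NK cells); Cd79a, Cd79b and Ms4a1 (B cells); Pecam1, Cdh5, Kdr, Emcn, Tek and Plvap (endothelium); and Adipoq, Plin1 and Cfd (fat). Alternatives were scaling by upper-quartile factors or by the size factors of DESeq2 1.42.0, no filter beyond 1 read, a mean of at least 50 counts, edgeR's exact test, limma-voom (limma 3.58.1), the Wald test of DESeq2, only the 6 libraries compared, a replicate block, a Y-linked term, each library left out, and the longest transcript as length. Deviations from group means of same-numbered PBS and SN-011 libraries correlated at 0.26, 0.305 and 0.135, against -0.277 to 0.109 for differently numbered ones. No label states a pairing, but the numbers were taken to pair these groups. Their 6 libraries were also fitted with a replicate block, added after the data were seen. With wild type the correlations were -0.357 to 0.313, not all over 0.1. Promoters are from RefSeq (GRCm38.p6), with entries for Gbp2, Gbp3, Gbp5, Gbp7 and Gbp2b. Coding sequences are from GENCODE.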

Additional observations from a re-analysis of the deposited data

How the results depend on the processing

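Of the log2 fold changes of single members under 19 alternatives, 165 of 189 kept direction and call with PBS against wild type, 11 lost the call and 13 gained it. For SN-011 against wild type these were 154, 23 and 12 of 189. For SN-011 against PBS, with the added fit of 6 libraries with the block, 194 of 198 kept both, 2 gained a call and 2 reversed, both for Gbp8, to 0.04 with the Y-linked term and 0.02 without PBS replicate 3 (-0.31 to 0.02 on leaving out libraries). The number of members called with PBS against wild type was 8, where 1.44% of all genes were called higher. It was 10 with no filter (1.36% of all genes), by DESeq2 (2.59%), by the exact test (2.61%) and with only the 6 libraries compared (2.88%). On leaving out single libraries it ran from 4 without wild-type replicate 1 (0.824%) to 10 without SN-011 replicate 2 (2.76%). For SN-011 against PBS, 0 in the reported fit, it was 1 with no filter beyond 1 read (Gbp3), where 127 of 30892 genes were called in either direction. On leaving out libraries it was 0 to 1, with 1 without SN-011 replicate 2 (2.29% of all genes called lower). For SN-011 against wild type it was 4, where 0.823% of all genes were called higher. It became 6 with no filter (0.984%), by DESeq2 (2.67%) and by the exact test (1.95%), and 2 by limma-voom (0.667%). With only the 6 libraries compared it was 0 (0.221%). On leaving out libraries it ran from 0 without wild-type replicate 1 (0.171%) to 8 without SN-011 replicate 1 (0.939%). The cause of these differences was not tested.

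With the number as a replicate block over all 9 libraries 8, 0 and 4 members were called in the 3 comparisons, as without it. For SN-011 against PBS, whose numbers were taken as pairs, the block over the 6 libraries compared called 0 members and 5 genes.

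Over all genes, 313 were called with PBS against wild type, 707 without the filter, 726 by DESeq2, 683 by the exact test, 751 with 6 libraries, 198 with the Y-linked term and 153 to 774 on leaving out libraries. For SN-011 against PBS the count of 0 became 127, 183 and 127 without the filter, by DESeq2 and by the exact test, and 0 to 519 on leaving out libraries. For SN-011 against wild type the count of 213 became 607, 806, 601, 43 with 6 libraries, 656 with the Y-linked term and 38 to 376 on leaving out libraries.

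With the longest transcript as length, the level per kilobase was 33.5 for Gbp3 with PBS, 2.82, 4.92 and 3.93 for Gbp4 (wild type, PBS, SN-011), 1.85, 4.25 and 2.76 for Gbp5, and 1.03 and 7.31 for Gbp6 in wild type and with PBS.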
